A study of Mus musculus with 15 samples.

Results

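Megakaryocyte-erythroid progenitors (MEP) were compared with granulocyte-macrophage progenitors (GMP) from mouse bone marrow labelled as Dnmt3a knockout. The members are the 4 Dnmt3a knockout libraries sorted as MEP or GMP, 2 of each, out of 15 libraries in the study. They were chosen by genotype and cell type alone, and a knockout MEP and a knockout GMP library share the first part of their title. The assay was reduced representation bisulfite sequencing (RRBS). It samples CpGs in the CpG-rich share of the genome, and bisulfite converts unmethylated but not methylated cytosines, so that the share of unconverted reads gives the methylation level of a CpG.

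The knockout cells carried the genotype Mx1-cre+;Dnmt3a-/- on C57BL/6. Wild type cells, as the labels name them, were Mx1-cre+;Dnmt3af/f, so they carried the Cre transgene and a floxed Dnmt3a. The Idh2 R140Q cells were Mx1-cre-;Dnmt3af/f, and a double mutant group was Mx1-cre+;Dnmt3a-/-;Idh2 R140Q. Titles of all knockout and wild type libraries hold GFP, and those of the Idh2 R140Q and double mutant libraries do not. Knockout and Idh2 R140Q libraries thus also differ in this part of the title. Mx1-cre is driven by an interferon-responsive promoter and is active in blood cells, and the labels used here do not say how or when it was induced. MEP were lineage-negative, cKit+, Sca1-, CD34- and CD16/32-, and GMP differed in being CD34+ and CD16/32+. The double mutant cells were malignant progenitors with the surface markers of MEP. The labels do not state that libraries of a group came from separate animals, so every p-value measures the spread between these libraries, which may be technical.

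MEP and GMP are sister progenitors. MEP give red cells and platelets and depend on factors such as GATA1, FOG1 and KLF1, while GMP give neutrophils and macrophages and depend on PU.1 and the C/EBP factors. Methylation at enhancers and gene bodies is remodelled as the lineages part. Dnmt3a places methylation on unmethylated CpGs, Dnmt1 copies it at replication, and the Tet enzymes oxidise it.

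The knockout libraries held 20541812 to 26086791 reads over cytosines. On the 19 autosomes 385531 CpGs had at least 10 reads in all 4 libraries, with a median depth of 28 to 39 reads. Windows of 1 kb were kept if they held 3 or more of these CpGs. Of 44291 such windows, 44064 had reads in every library of the study and were tested. They held a median of 4 CpGs and of 168 reads per window and knockout library. On mitochondrial DNA, which carries little CpG methylation, 0.631% (GMP replicate 1), 1.23% (MEP replicate 1), 2.77% (GMP replicate 2) and 1.66% (MEP replicate 2) of reads stayed unconverted, and the part of this difference in the results was not tested. The reads over Dnmt3a coding sequence, per 1000000 reads, came to 0.549 in GMP replicate 1 and 0.737 in MEP replicate 1 of the knockout, but to 3.75 in GMP replicate 2 and 3.20 in MEP replicate 2. They were 2.53 to 3.24 in wild type and 1.2 to 3.31 in Idh2 R140Q libraries, so the first knockout prefix lay below wild type and the second did not. The double mutant libraries, also labelled Dnmt3a-/-, read 3.99, 2.40 and 2.58. Which exons were deleted was not used here, and RRBS gives no expression, so neither the knockout nor the sort could be checked. The cells were measured in bulk, so a level between 0 and 100% cannot tell partly methylated cells from a mixture of cells.

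Windows that differed between the knockout lineages were all higher in MEP. The model called 20 of the 44064 windows (0.0454%) as higher in knockout MEP and 0 as lower (0%), with a quasi-binomial test of methylated against all reads, a Benjamini-Hochberg adjusted p under 0.05 and a difference of at least 10 percentage points. Before adjustment, 1803 windows were higher (4.09%) and 612 lower (1.39%) at p under 0.05, and libraries did not overlap in 19.2% of windows with MEP above GMP and in 8.91% with MEP below. The stretches below show where the largest differences lay and 2 further ones, in an intron of Arfip1 and at Itgb3, chosen after their values were seen because they stand for patterns described later. They are the plus strand of build mm9, 300 bases each, with the CpGs measured in all 4 knockout libraries in capitals.
Kdelc2, coding exon, chr9:53198462-53198761: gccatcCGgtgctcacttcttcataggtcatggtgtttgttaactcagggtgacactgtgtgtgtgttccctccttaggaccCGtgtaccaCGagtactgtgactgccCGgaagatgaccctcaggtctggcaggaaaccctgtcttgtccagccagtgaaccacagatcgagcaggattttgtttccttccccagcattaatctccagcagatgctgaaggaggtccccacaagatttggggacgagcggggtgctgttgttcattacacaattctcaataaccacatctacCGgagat
near Lmo4, intergenic, chr3:144019512-144019811: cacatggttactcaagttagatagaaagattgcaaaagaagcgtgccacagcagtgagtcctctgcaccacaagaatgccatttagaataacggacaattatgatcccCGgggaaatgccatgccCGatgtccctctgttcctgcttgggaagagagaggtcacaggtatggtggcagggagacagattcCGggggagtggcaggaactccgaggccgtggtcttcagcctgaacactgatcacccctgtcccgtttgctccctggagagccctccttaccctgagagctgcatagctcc
Ets2, intron, chr16:95930152-95930451: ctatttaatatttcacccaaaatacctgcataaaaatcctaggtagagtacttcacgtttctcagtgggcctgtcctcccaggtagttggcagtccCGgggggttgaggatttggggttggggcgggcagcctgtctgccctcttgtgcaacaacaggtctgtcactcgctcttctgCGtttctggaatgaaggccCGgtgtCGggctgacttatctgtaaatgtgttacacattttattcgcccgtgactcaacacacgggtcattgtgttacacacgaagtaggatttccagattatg
Arfip1, intron, chr3:84921395-84921694: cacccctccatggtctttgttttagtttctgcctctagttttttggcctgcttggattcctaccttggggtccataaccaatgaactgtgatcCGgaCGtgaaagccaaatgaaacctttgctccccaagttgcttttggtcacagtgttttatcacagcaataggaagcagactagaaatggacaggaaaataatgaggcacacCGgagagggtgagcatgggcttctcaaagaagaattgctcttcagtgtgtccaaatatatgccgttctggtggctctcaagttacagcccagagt
Itgb3, coding exon and the intron after it, chr11:104505239-104505538: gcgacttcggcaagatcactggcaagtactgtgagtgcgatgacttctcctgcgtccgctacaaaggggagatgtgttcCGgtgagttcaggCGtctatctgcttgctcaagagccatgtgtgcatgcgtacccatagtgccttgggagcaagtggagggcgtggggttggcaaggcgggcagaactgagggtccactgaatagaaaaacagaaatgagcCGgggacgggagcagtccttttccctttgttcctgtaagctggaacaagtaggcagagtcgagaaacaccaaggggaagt

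All 5 capitalised CpGs of the Kdelc2 stretch were more methylated in both MEP than in both GMP libraries. The CpG at base 7 stood at 84.0% and 95.1% in MEP and at 25% and 48.3% in GMP, and the CpG at base 109 at 100% in both MEP and at 34.1% and 32.3% in GMP. The least separated CpG of the stretch, at base 294, read 81.8% and 55.6% in MEP and 6.82% and 20% in GMP. In the stretch near Lmo4, the CpG at base 109 read 42.9% and 56.3% in MEP against 4.65% and 3.85% in GMP, and the CpG at base 191 read 100% and 81.3% against 36.4% and 37.5%. The Itgb3 stretch was not uniform. Its CpGs at bases 80 and 93 were at 100% in both MEP libraries and between 54.2% and 74.0% in GMP, while the CpG at base 221 read 54.5% and 30.0% in MEP and 10.7% and 30.4% in GMP, where the libraries overlapped. Each of these single-CpG values rests on 16 to 81 reads.

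The largest difference lay in a coding exon of Kdelc2, which encodes a KDEL-motif protein of the endoplasmic reticulum. Over the window (chromosome 9, 53198001 to 53199000) MEP stood at 93.9% and 83.2% and GMP at 21.9% and 30.7%, a difference of 62.2 points (adjusted p = 0.0114, quasi-binomial model). The libraries did not overlap. The window near Lmo4, a LIM-only transcriptional cofactor whose start site lies 150817 bp away (chromosome 3, 144019001 to 144020000), stood at 75.3% and 68.8% in MEP and 15.1% and 11.8% in GMP. In an intron of Ets2, an ETS family transcription factor (chromosome 16, 95930001 to 95931000), the values were 73.9% and 93.8% against 31.5% and 28.0%. An intron of Sec22b, a SNARE protein of vesicle traffic (chromosome 3, 97723001 to 97724000), read 88.8% and 94.1% in MEP and 40.1% and 42.2% in GMP. In these 4 windows the lowest MEP library stood 42.5 to 53.6 points above the highest GMP library.

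Of the other 8 windows named by size, the first lay in an intron of Gna12, a heterotrimeric G protein subunit, at 83.6% and 94.5% in MEP and 41.4% and 36.4% in GMP. The intergenic window nearest to Nedd9, a focal adhesion scaffold, read 84.8% and 97.4% against 36.9% and 47.5%. A coding exon of Tmed3, a cargo protein of the secretory pathway, read 90.8% and 95% against 47.3% and 42.1%. These windows shared a high MEP level and a GMP level near the middle of the scale. That form was also seen in an intron of the annotated Arfip1 model, an arfaptin gene (the nearest start site is that of Fbxw7, 164933 bp away), at 93.2% and 91.4% against 40% and 54.2%, and in the window nearest to Trib1, a pseudokinase that directs the breakdown of C/EBP alpha, at 96.5% and 100% against 56.1% and 58.0%. The window nearest to Gpr110, an adhesion receptor, read 85.0% and 83.9% against 47.0% and 45.8%. An intron of Slc26a8, an anion transporter, was at 85.9% and 79.3% in MEP and 26.2% and 45.2% in GMP, and a coding exon of Xpc, a DNA damage sensor, at 60.8% and 74.4% against 25% and 19.6%.

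The remaining called windows lay in Itgb3, in 2 windows of Rnf144b, near Cdca4 and in Nup214, Sh3rf1, Rassf3 and Cdc42ep4, and apart from Itgb3 they are named here after their values were seen. Their differences ran from 24.0 points at Cdc42ep4, an effector of Cdc42, to 37.8 points at the intron window of Rnf144b, a ubiquitin ligase. Over all 20 windows the gap between the lowest MEP and the highest GMP library ran from 20.2 to 53.6 points with a median of 36.3. MEP means were over 80% in 17 of the 20. The windows held 3 to 8 CpGs, 11 of them the minimum of 3, and 57 to 350 reads per knockout library.

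**Figure D1:**
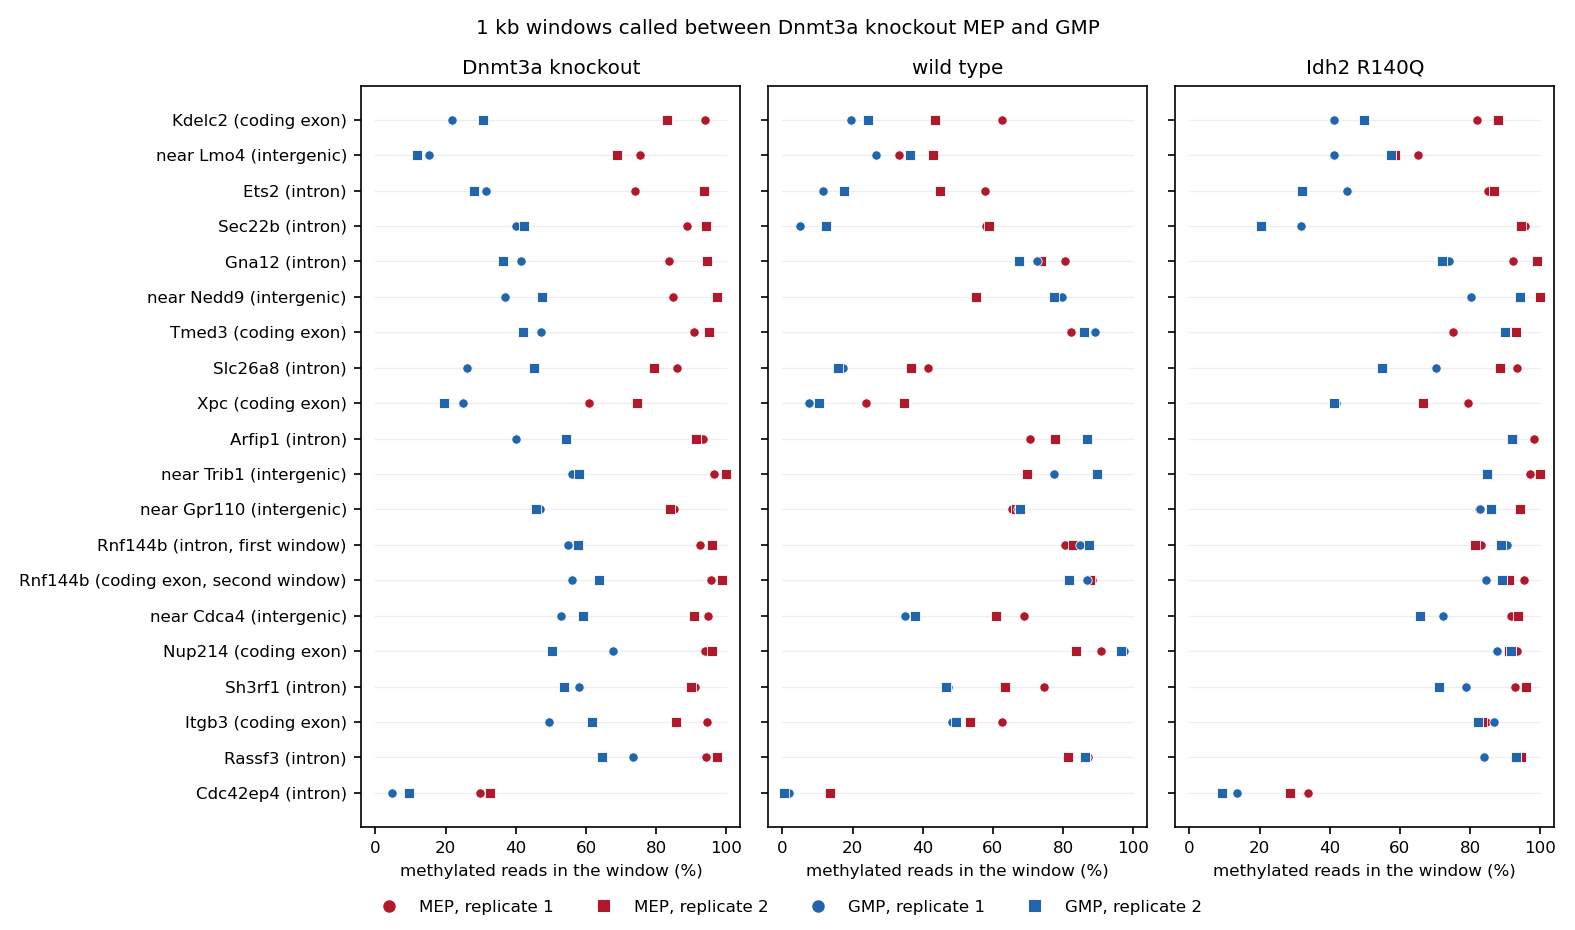
Methylation level of each library in the 20 windows called between knockout MEP (red) and knockout GMP (blue), in percent of reads, with the windows in order of the knockout difference; the middle and right panels give the same windows in wild type and Idh2 R140Q cells. In the left panel every red point lies at least 20.2 points to the right of every blue point of its window, while in the other panels some windows keep this order and others do not.

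The other tools gave no calls for these windows. limma on log2 ratios called 0 windows, with 2770 at an unadjusted p under 0.05 and a smallest adjusted p of 0.131. edgeR's quasi-likelihood test also called 0, with 2047 at an unadjusted p under 0.05 and a smallest adjusted p of 0.323, and all 20 windows had an unadjusted p under 0.05 in both tools. The count also rested on single libraries, since the same model called 0 windows without GMP replicate 1, 2 without MEP replicate 1, 5 without GMP replicate 2 and 10 higher and 4 lower without MEP replicate 2.

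The 20 windows lay away from promoters. Promoter windows, those within 1 kb of an annotated start, made up 0 of the 20 and 44.7% of all windows tested, and 9 lay in introns (45% against 14.8%), 6 in coding exons (30.0% against 12.1%) and 5 between genes (25% against 26.7%). Among the 6985 windows whose mean over the knockout libraries fell in the range of the called ones, 21.4% were promoter windows and 22.1% intronic. A further 11.6% of them lay in coding exons and 42.6% between genes. Median GC content was 46.8% in the called windows, 50.2% in the windows of like level and 52.5% in all windows.

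The letters of 5 motifs of blood transcription factors were searched in the 1 kb windows on both strands. The C/EBP motif TTGCNNAA was present in 13 of the 20 called windows (65%), in 31.4% of the windows of like level and in 29.1% of all windows. The GATA motif AGATAA was present in 9 (45%, against 36.3% and 30.7%) and the E-box CACGTG in 6 (30.0%, against 15.7% and 17.1%). The RUNX motif TGTGGTTT was present in 3 (15%, against 6.41% and 5.24%) and the PU.1 motif GAGGAAGT in 1 (5.0%, against 7.32% and 6.25%). A match is a description of the letters and not a binding site, and the windows also differed in base composition.

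Read in wild type and Idh2 R140Q libraries, the 20 windows fell into different patterns. Wild type MEP lay above wild type GMP without overlap in 11 of the 20, against 9.45% of all windows, and Idh2 R140Q MEP above its GMP in 15, against 7.27%. Wild type MEP lay below wild type GMP without overlap in 6, against 20% of all windows. Knockout MEP lay above without overlap in 8468 of all windows, and 1953 of these (4.43% of all) had wild type MEP below in this way. An unadjusted p under 0.05 was reached by 10 windows in wild type (4.18% of all) and 10 in Idh2 R140Q (8.54% of all), and by 16 in the knockout minus wild type difference (4.66% of all). In 12 windows Idh2 R140Q MEP lay at least 10 points above GMP, against 2.17% of all. In 8 windows wild type MEP also lay at least 10 points above wild type GMP, against 2.00% of all windows, namely Kdelc2, Ets2, Sec22b, Slc26a8, Xpc, near Cdca4, Sh3rf1 and Cdc42ep4. At Sec22b wild type MEP stood at 58.0% and 58.8% and GMP at 5.0% and 12.5%, and Idh2 R140Q MEP at 95.5% and 94.5% and GMP at 31.9% and 20.5%. The lineages were thus ordered alike in all 3 genotypes, and the knockout levels lay above the wild type ones in both lineages, by 33.1 points in MEP and 32.4 in GMP. At Cdc42ep4 wild type MEP stood at 13.2% and 13.6% and GMP at 1.84% and 0.344%, against 29.7% and 32.5% in knockout MEP and 4.64% and 9.56% in knockout GMP.

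In the other 12 windows wild type cells differed by less than 10 points or in the opposite direction. At Arfip1, wild type MEP stood at 70.5% and 77.7% and wild type GMP at 86.7% and 86.8%, so that the knockout GMP libraries, at 40% and 54.2%, lay 39.6 points below wild type GMP on average. At Nup214, a nucleoporin, wild type MEP stood at 90.9% and 83.7% and wild type GMP at 97.5% and 96.6%, against 67.7% and 50.3% in knockout GMP. Over the 20 windows, knockout GMP lay at least 10 points below wild type GMP in 11 and at least 10 points above it in 5. Knockout MEP lay at least 10 points above wild type MEP in 17 and that far below it in 0. The double mutant mean was nearer to knockout MEP than to knockout GMP in 19 of 20, with the window near Lmo4 the exception at 27.9%, 12.5% and 14.3%. These windows were chosen for the knockout difference, which favours a high knockout MEP and a low knockout GMP level. Such counts thus describe them and test nothing, and the shares over all windows were not counted. The window near Lmo4 held as few as 8 reads in a library of another group.

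Without a block by title prefix, the test of the difference between genotypes called no window. Over 38267 windows with 10 reads per CpG in the 8 knockout and wild type libraries, 0 had a lineage difference that departed from that of wild type at an adjusted p under 0.05 (0% called), with 1799 at an unadjusted p under 0.05 (4.70%) and a smallest adjusted p of 0.0764. Against Idh2 R140Q the count was 0 of 35260 windows, with 2649 at an unadjusted p under 0.05 (7.51%) and a smallest adjusted p of 0.146. limma and edgeR called 0 in both comparisons, with 1950 and 1576 windows at an unadjusted p under 0.05 against wild type, and 2623 and 2105 against Idh2 R140Q. Knockout and wild type also differed in sex chromosome reads, with Y reads at 202.5 to 302.7 per 1000000 autosomal reads in knockout and 53.95 to 57.5 in wild type, so genotype and sex chromosome content cannot be told apart there. In Idh2 R140Q libraries the Y reads were 198.8 to 287.8.

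Windows that separated the lineages in wild type or Idh2 R140Q cells were then read in the knockout. In wild type, 54 of 38267 windows were called (0.141%), 43 higher and 11 lower in MEP, and in Idh2 R140Q 66 of 35260 (0.187%), 40 higher and 26 lower. Of the windows higher in MEP, 18 were in both lists (41.9% of the wild type list and 45% of the Idh2 list), and of those lower in MEP 3 were (27.3% and 11.5%). A window chosen for its difference in a genotype can overstate that difference there, so the knockout was set beside the genotype that had not chosen the window.

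At the 43 windows higher in wild type MEP, knockout MEP averaged 65.9% and 69.2% and knockout GMP 47.7% and 52.0%. The lineages kept their order in the knockout, with libraries that did not overlap in 35 of the 43 windows, against 18.8% of all windows of this comparison. The difference was 17.7 points in the knockout, 18.2 and 17.1 within the shared title prefixes, and 36 points in Idh2 R140Q, 37.3 and 34.6 within prefixes. The knockout difference was the smaller of these in 35 of the 43 windows, and 24 of the 43 had an unadjusted p under 0.05 in the knockout, against 5.03%. Over single libraries an exact permutation test, two-sided, gave p = 0.33, which is as small as 2 against 2 allows, for the difference in the knockout and likewise for knockout against Idh2 R140Q prefixes. At the 40 windows higher in Idh2 R140Q MEP, knockout MEP averaged 53.3% and 59.3% and knockout GMP 34.8% and 38.4%, a difference of 19.7 points against 28.5 in wild type, and it was the smaller of these in 25 of the 40. Libraries did not overlap in 33 of these 40, against 18.7%, and 25 had an unadjusted p under 0.05, against 5.73%.

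At the windows lower in MEP the knockout lineages stood close together. Over the 26 windows lower in Idh2 R140Q MEP, wild type MEP averaged 46.6% and 55.7% and wild type GMP 77.2% and 79.6%, a difference of -27.2 points. Knockout MEP averaged 48.2% and 53.9% and knockout GMP 55.9% and 56.2%, a difference of -5.06 points, smaller than that of wild type in all 26 windows (exact p = 0.33, the smallest possible). Knockout libraries were without overlap and MEP below in 11 of the 26, against 8.64% of all windows. MEP was above without overlap in 4 of the 26, against 18.7% of all windows. Knockout MEP lay 0.109 points below wild type MEP and knockout GMP 22.3 points below wild type GMP. Over the 11 windows lower in wild type MEP the knockout difference was -2.76 points, from 78.4% and 79.5% in MEP and 81.70% and 81.73% in GMP, against -31.5 points in Idh2 R140Q, and it was the smaller in 11 of 11. Knockout MEP lay below GMP without overlap in 5 of these 11, against 8.9%. The size of this difference moved with the settings, from -10.8 points over CpGs read in all 15 libraries to 1.63 points among windows that changed by 25 points or more.

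**Figure D2:**
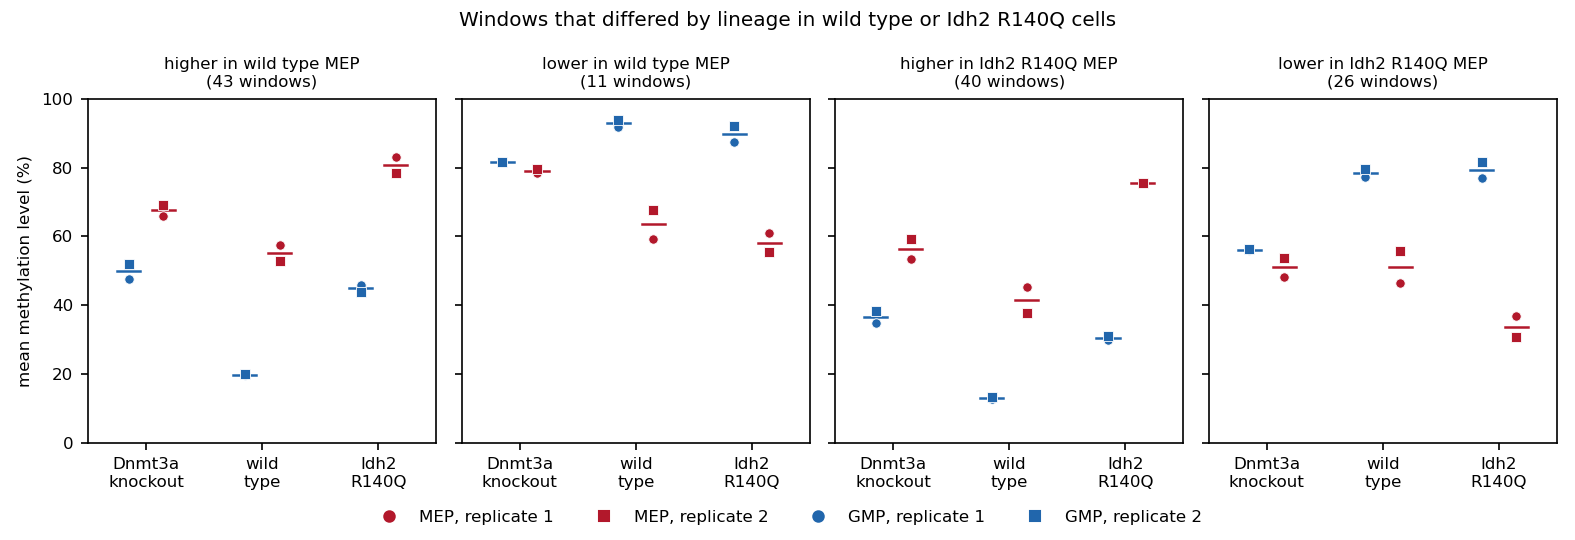
Mean methylation level of each library, in percent, over windows called between MEP (red) and GMP (blue) in wild type (43 higher, 11 lower) or in Idh2 R140Q cells (40 higher, 26 lower); short lines are means of 2 libraries. In the knockout the red minus the blue mean is 17.7 and 19.7 points in the panels of windows with MEP higher, and -2.76 and -5.06 points in those with MEP lower.

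Of the 26 windows lower in Idh2 R140Q MEP, 4 are described here, picked after their values were seen and standing for no gene group. Rhd and Zfpm1 are in the erythroid list used below, and Kcnn4 and Stat5a are in none of the lists. At the promoter window of Rhd, a Rhesus blood group protein (chromosome 4, 134420001 to 134421000), Idh2 R140Q MEP stood at 32.9% and 22.4% and GMP at 79.7% and 86.9%. Wild type MEP stood at 47.1% and 72.7% and GMP at 90.5% and 92.5%, while knockout MEP read 55.0% and 64.8% and knockout GMP 71.9% and 65.6%. The knockout lineages did not overlap there, with under 1 point between the nearest libraries. In an exon of Kcnn4, the calcium-activated potassium channel of red cells (chromosome 7, 25162001 to 25163000), knockout MEP read 27.4% and 35.9% and knockout GMP 49.6% and 40%, against 44.9% and 51.0% and 85.8% and 86.7% in wild type. Both knockout lineages thus lay within or below the range of wild type MEP.

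An intron of Zfpm1, which encodes the GATA1 partner FOG1 (chromosome 8, 124833001 to 124834000), was low in every knockout library. MEP read 9.43% and 11.2% and GMP 7.64% and 6.98%, against 24.3% and 36.8% in wild type MEP and 51.6% and 50% in wild type GMP. In Idh2 R140Q the lineages stood at 7.61% and 5.94% in MEP and 39.5% and 36.5% in GMP. At a window by an internal start site of Stat5a, a mediator of erythropoietin and thrombopoietin signalling (chromosome 11, 100741001 to 100742000), knockout MEP read 56.2% and 51.2% and knockout GMP 66.2% and 60.9%, against 37.5% and 53.5% and 89.9% and 80.6% in wild type. None of these 4 windows was called between the knockout lineages, and none had a knockout difference that departed from that of Idh2 R140Q after adjustment (adjusted p from 0.352 to 0.553, quasi-binomial model).

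From the windows higher in MEP, those in Flt3, near Myb and in Cdk6, Alas1 and Prtn3 were likewise picked after their values were seen. Alas1 and Cdk6 are in none of the lists. In an intron of Flt3, a receptor of early myeloid and lymphoid progenitors (chromosome 5, 148200001 to 148201000), wild type GMP stood at 3.85% and 2.82% and wild type MEP at 30.3% and 28.5%. Knockout GMP read 24.0% and 28.9% and knockout MEP 30.6% and 29.9%. The knockout GMP level thus lay near that of MEP, and the difference between the knockout lineages was 3.80 points, with 0.999 points between the nearest libraries. An intergenic window 31211 bp from the start of Myb (chromosome 10, 20912001 to 20913000) had wild type GMP at 10.1% and 7.05% and knockout GMP at 58.8% and 62.6%, with knockout MEP at 48.1% and 78.1% on either side of them.

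The knockout libraries were farther apart at Cdk6 and Alas1, with MEP above. In an intron of Cdk6, a cell cycle kinase (chromosome 5, 3382001 to 3383000), knockout GMP read 13.9% and 13.2% and knockout MEP 23.6% and 44.4%, against 5.54% and 2.61% and 36.4% and 32.0% in wild type. In an intron of Alas1, the enzyme of the first step of heme synthesis outside red cells (chromosome 9, 106148001 to 106149000), knockout MEP read 98.2% and 94.4% and knockout GMP 42.6% and 69.0%, a difference of 40.5 points against 34.7 points in wild type. At a window by an internal start site of Prtn3, the neutrophil protease proteinase 3 (chromosome 10, 79345001 to 79346000), knockout MEP read 14.9% and 12.6% and knockout GMP 5.0% and 11.6%. Wild type read 17.9% and 16.6% in MEP and 2.90% and 4.72% in GMP, and the nearest knockout libraries were 1.0 point apart. The Prtn3 promoter with the most measured CpGs read 0% and 0.533% in knockout MEP and 0% and 2.75% in knockout GMP. A window in an intron of Gm13845 (chromosome 6, 31346001 to 31347000), also picked after its values were seen, ran the other way. It read 81.0% and 67.7% in knockout MEP and 40.5% and 44.0% in knockout GMP. Wild type read 48.1% and 65.3% in MEP and 87.5% and 92.2% in GMP. The adjusted p for the difference between genotypes was 0.0764 (quasi-binomial model), the smallest over the 38267 windows.

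The mean methylation level hardly separated the knockout lineages. Over all 385531 CpGs it was 37.6% and 39.1% in MEP and 37.3% and 38.0% in GMP, means of 38.4% ± 1.0 and 37.7% ± 0.50 (SD, n = 2 each), a difference of 0.655 points (exact two-sided permutation p = 0.667, where 0.33 is the smallest possible). The libraries overlapped, and the sign changed without MEP replicate 2 (-0.0616 points) and when deep CpGs counted for more, as methylated over all reads (-4.13 points). By place, MEP exceeded GMP by 0.0939 points in promoter windows, 0.933 in coding exons, 1.15 in introns and 1.14 between genes, with overlap at each place. CpGs over 80% in wild type were the exception, at 91.6% and 93.3% in MEP and 91.21% and 91.22% in GMP (110317 CpGs, exact p = 0.33).

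Over 255111 CpGs read in knockout, wild type and Idh2 R140Q, the knockout difference was 0.650 points, and 0.270 and 1.03 within the title prefixes. In wild type it was -0.815 points (-1.47 and -0.159) and in Idh2 R140Q -1.37 points (-0.734 and -2.01). Both knockout prefixes thus lay above 0 and all 4 others below it, and the exact permutation p of prefixes against either genotype was 0.33, the smallest possible. This order holds within prefixes, which were not taken as pairs in the knockout. Unconverted mitochondrial reads were higher in GMP than in MEP in both prefixes of wild type (3.12% and 3.27% against 1.63% and 1.62%). The same held in Idh2 R140Q (2.43% and 1.31% against 1.12% and 0.280%). In the knockout, GMP was below MEP in the first prefix and above it in the second. The part of these reads in the order of mean levels was not tested. Over single libraries the lineages overlapped in the knockout (MEP replicate 1 at 38.10%, GMP replicate 2 at 38.54%). They also overlapped in wild type (MEP replicate 2 at 38.68%, GMP replicate 1 at 38.63%).

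Widely separated windows with MEP the higher were about as many in each genotype, and those with MEP the lower were fewest in the knockout, a difference in counts that was not tested. Over 9384 windows read in all 3 with intermediate levels, those where the lowest MEP library lay at least 20 points above the highest GMP library numbered 49 in knockout, 53 in wild type and 61 in Idh2 R140Q. The reverse, MEP at least 20 points below, was seen in 2, 19 and 55 windows. Counting every window whose libraries did not overlap, MEP lay above GMP in 20.3% of these windows in the knockout and below in 10.8%, against 11.3% and 21.9% in wild type and 8.35% and 23.3% in Idh2 R140Q. Over the full 44064 windows of the knockout, 82 had MEP at least 20 points above (0.186%) and 5 had it that far below (0.0113%). Across windows, the difference within the first title prefix and that within the second had r = -0.0202 in knockout, 0.308 in wild type and 0.325 in Idh2 R140Q, as a description over windows that share libraries.

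**Figure D3:**
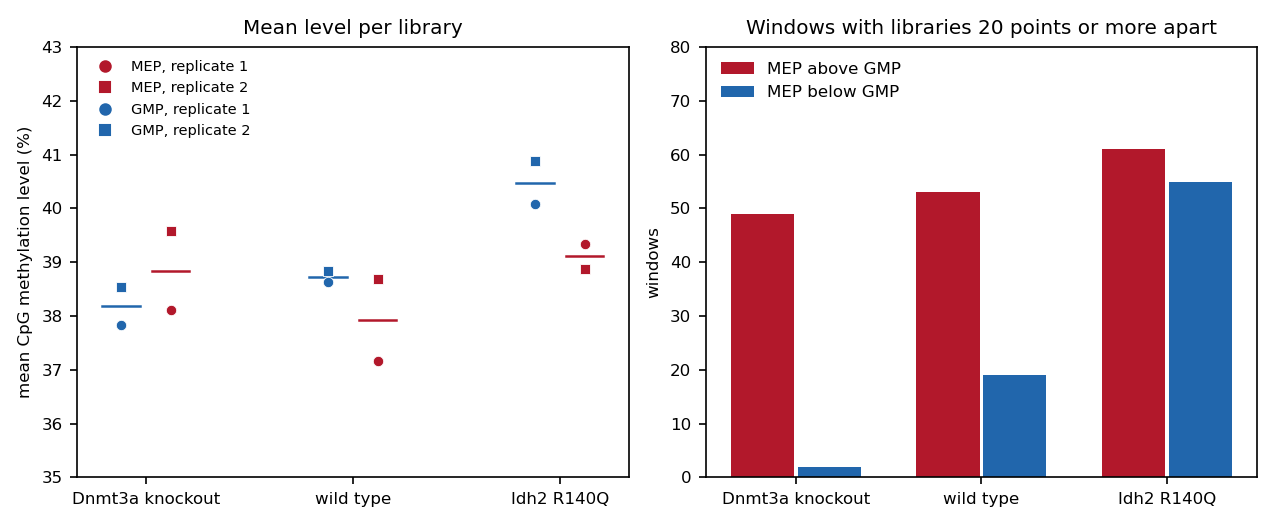
Left, mean CpG methylation level of each library in percent over 255111 CpGs (axis from 35%), with MEP in red, GMP in blue and short lines at means of 2 libraries; right, the number of windows of 9384 whose MEP libraries lay 20 points or more above (red) or below (blue) both GMP libraries. Each knockout MEP library lies above its same-numbered GMP library, while MEP replicate 1 lies below GMP replicate 2. The knockout has 49 windows above and 2 below.

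Promoters of lineage genes did not separate the knockout MEP and GMP. Of 14348 promoters, taken as all measured CpGs within 1 kb of a start site, 0 were called (0%), with 517 at an unadjusted p under 0.05 (3.6%), of which 44 (0.307% of all) also differed by 10 points. Libraries did not overlap in 1934 promoters with MEP above (13.5%) and in 1173 with MEP below (8.18%), together 21.7%. In the lists these counts were 1 and 2 of 22 erythroid, 3 and 0 of 16 granulocyte and macrophage, 0 and 0 of 13 megakaryocyte, 2 and 2 of 22 stem and early progenitor, 4 and 0 of 17 DNA methylation machinery and 1 and 0 of 11 lymphoid promoters. limma called 0, with 691 unadjusted, and edgeR 0, with 433 unadjusted. Most promoters of the lists were unmethylated in both lineages, with 18 of 22 measured erythroid, 12 of 13 megakaryocyte, 14 of 16 granulocyte and macrophage and 21 of 22 stem and early progenitor promoters under 10% in each. The same held for 11949 of all 14348. Their median differences were -0.0879, 0.0974, -0.0431 and 0.122 points, against 0 over all promoters. For the lymphoid list, the other cells of marrow, 0 of 11 measured promoters were called, with a median of -0.345 points, and for the DNA methylation machinery 0 of 17, with a median of 0.0813.

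Genes that define the sort and the lineages showed this low level. The Cd34 promoter read 0% in both MEP and 0% and 1.38% in GMP, and that of Kit, the stem cell factor receptor, 0% and 1.21% in MEP and 0% and 1.44% in GMP. Cebpa, the main C/EBP factor of GMP, read 0.858% and 0.287% in MEP and 0.190% and 0.674% in GMP. Gata2, Runx1, Tal1 and Zfpm1 promoters were likewise under 2% in all 4 libraries. Itga2b, the megakaryocyte integrin CD41, was a little higher at 6.93% and 6.27% in MEP and 6.69% and 7.94% in GMP, with overlap. Promoters of Klf1, Epor, Gfi1b, Mpo, Elane and Csf1r did not have enough measured CpGs.

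The exception by size was Csf2ra, which encodes the alpha chain of the GM-CSF receptor (chromosome 19). Over 12 promoter CpGs it stood at 44.2% and 46.4% in MEP and at 18.8% and 29.8% in GMP, a difference of 21.0 points (unadjusted p = 0.00164, adjusted p = 0.991, quasi-binomial model). The libraries did not overlap, and 332 to 425 reads stood behind each value. It was not called. In the 1 kb window holding part of this promoter (61304001 to 61305000), wild type MEP read 39.9% and 26.1% and wild type GMP 18.5% and 16.9%, the same order as in the knockout.

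At the loci of listed genes, counting windows over the gene and 10 kb upstream, 1 of 68 windows of the megakaryocyte list was called and 0 of 103 erythroid, 0 of 73 granulocyte and macrophage, 0 of 157 stem and early progenitor, 0 of 70 lymphoid and 0 of 59 DNA methylation machinery windows, against 0.0454% of all. The called one was the Itgb3 window (chromosome 11, 104505001 to 104506000). Itgb3 encodes integrin beta 3, which pairs with Itga2b as the platelet fibrinogen receptor. It stood at 94.6% and 85.7% in MEP and 49.6% and 61.8% in GMP, a difference of 34.4 points (adjusted p = 0.0421, quasi-binomial model). The call held in 2 of the 12 alternatives run, and the adjusted p was 0.0634 at 20 reads per CpG, 0.0608 over CpGs read in all 15 libraries, 0.0520 in 500 bp windows, 0.256 with limma and 0.602 with edgeR. It rose as far as 0.683, without MEP replicate 1. Wild type stood at 62.5% and 53.5% in MEP and 48.3% and 49.6% in GMP, and Idh2 R140Q at 84.7% and 83.5% and at 86.8% and 82.3%. The Itgb3 promoter itself read 1.12% and 0.223% in knockout MEP and 0% and 1.82% in knockout GMP.

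At an unadjusted p under 0.05, 7 of 73 granulocyte and macrophage windows passed (9.59%), 5 of 68 megakaryocyte (7.35%), 11 of 157 stem and early progenitor (7.01%), 4 of 70 lymphoid (5.71%), 3 of 59 DNA methylation machinery (5.08%) and 4 of 103 erythroid windows (3.88%), against 5.48% of all windows. Median differences of the locus windows ran from 0 points in the granulocyte and macrophage list to 0.339 in the lymphoid list, against 0.235 over all windows. The windows past 10 points were named after their values were seen. At a promoter window of Cebpb, a C/EBP factor of emergency granulopoiesis (chromosome 2, 167513001 to 167514000), MEP read 42.6% and 65.1% and GMP 31.7% and 30.5%. This window held 6 measured CpGs and lay 415 bp from the nearest start site. Over the 72 measured CpGs of the Cebpb promoter, knockout MEP read 1.8% and 4.1% and knockout GMP 2.2% and 2.8%, with overlap. At a window by an internal start site of Fcgr3, the CD16 receptor used in the sort (chromosome 1, 172987001 to 172988000), MEP read 86.8% and 94.8% and GMP 72.0% and 76.5%. The sort selected GMP on the protein of this gene. Wild type had the same order there, at 90.8% and 78.4% in MEP and 63.5% and 64.5% in GMP. The other Fcgr3 windows differed by -5.07 to 3.09 points between the knockout lineages. Over the 45 measured CpGs of the Fcgr3 promoter, knockout MEP read 8.88% and 8.55% and knockout GMP 8.17% and 8.20%. Neither the Cebpb nor the Fcgr3 window was called (adjusted p = 0.879 and 0.874, quasi-binomial model).

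Among stem and early progenitor genes the windows went both ways. In an intron of Mecom, a transcription factor of stem cells (chromosome 3, 30352001 to 30353000), MEP lay below GMP, at 59.7% and 52.9% against 82.1% and 78.4%. Wild type stood at 86.1% and 89.1% in MEP and 86.4% and 92.9% in GMP, above both knockout MEP libraries. In an intron of Nfix (chromosome 8, 87310001 to 87311000), a nuclear factor of progenitor survival, knockout MEP read 43.8% and 64.9% and knockout GMP 36% and 23.7%, against 79.8% to 93.2% over the 4 wild type libraries. Both lineages of the knockout thus lay below wild type there. Windows of Runx1 in a non-coding exon and an intron differed by 11 and 10.4 points, with MEP the higher. The adjusted p of these windows ran from 0.756 to 0.893 (quasi-binomial model).

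**Figure D4:**
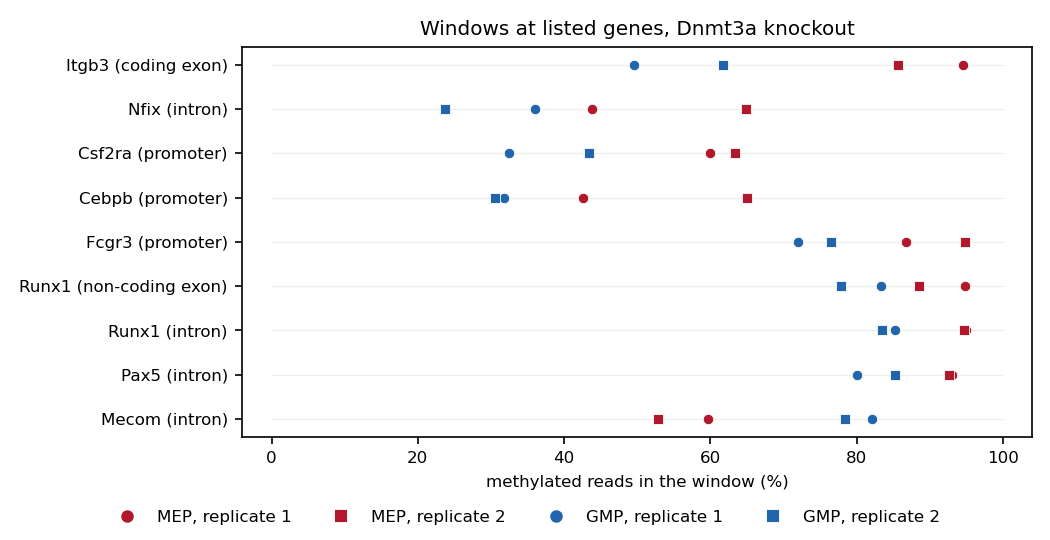
Methylation level in percent of reads of the 4 knockout libraries in windows of listed genes with an unadjusted p under 0.05 and a difference of at least 10 points, leaving out chromosome 18. Itgb3, at the top, is the only one called, and Mecom, at the bottom, is the one with MEP (red) below GMP (blue).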

How the data were processed

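The members, the gene lists and the comparisons were chosen with earlier results of these data known. The values are counts deposited by the authors, the methylated reads and all reads at each cytosine of a CpG, by strand. The deposited methylation fraction equalled their ratio in every row and was not used further. The submitters' processing notes name BSMAP 2.74, an aligner, and mm9. What was done about trimming, conversion and duplicates is not given in the sources used here. Copies of a molecule look like separate reads in RRBS, so read counts overstate precision and all errors given are over libraries.

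The 2 strands of each CpG were summed. All 1434127 autosomal positions fell on CG in the NCBIM37 reference, and gencode vM1 on the same build gave genes and start sites. Levels are methylated over all reads of a window or promoter, and mean levels weight each CpG equally. The quasi-binomial logistic model had 1 mean for each of 7 groups over all 15 libraries, with 8 residual degrees of freedom, a dispersion squeezed towards a common value of 3.00 (prior degrees of freedom 6.89) and not under 1, and an F test. p-values were adjusted over all windows or promoters. Tested on simulated data with these 44064 windows, it found 1%, 12%, 34% and 81% of windows changed by 10, 20, 30 and 45 points between knockout MEP and GMP, with 3.76% of calls false. limma found 0%, 0%, 0% and 5%, and edgeR 0%, 0%, 2% and 15%. Only windows with a knockout mean in the middle of the scale were changed, and the spread was that fitted by the quasi-binomial model. These shares thus do not cover windows of other levels or a spread of another form. Mean levels were compared by exact permutation of libraries.

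Called windows without overlap of libraries were named by size, the 12 with the largest difference in each direction, at most 1 per 10000 bp and outside chromosome 18, and called windows at listed genes, which number 41 erythroid, 25 megakaryocyte, 50 granulocyte and macrophage, 27 stem and early progenitor, 27 lymphoid and 21 DNA methylation machinery genes. Whether title prefixes pair the libraries was checked on deviations from group means over 9384 windows. Same-numbered libraries had r = -0.0526 in knockout, 0.378 in wild type and 0.492 in Idh2 R140Q, so the knockout prefixes were not taken as pairs. limma 3.58.1 and edgeR 4.0.16 ran in R 4.3.3, and all else in Python 3.11.15 with scipy 1.17.1, numpy 2.4.6, pandas 2.3.3 and matplotlib 3.10.9. Alternatives were 20 reads, 500 bp windows, 25 points, limma, edgeR, the 4 knockout libraries alone, a replicate block, CpGs read in all 15 libraries and leaving out each library.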

Additional observations from a re-analysis of the deposited data

Results flagged for a closer look

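In 6 of the 20 windows called in the knockout, every knockout MEP library lay above every knockout GMP library and every wild type MEP library below every wild type GMP library. Over all windows 4.43% had this pair of orders, but the 20 were chosen with knockout MEP above, so this share is not a like one. Of the 8468 windows with knockout MEP above without overlap, 1953 had wild type MEP below without overlap. Wild type MEP lay below GMP without overlap in 20% of all windows and in 21.9% of the 9384 with intermediate levels, beside 6 of the 20 here. The knockout difference exceeded that of wild type by 57.8 points at Arfip1 (adjusted p = 0.0769 for the difference between genotypes, quasi-binomial model), by 54.9 near Trib1 (adjusted p = 0.129) and by 51.8 at Tmed3 (adjusted p = 0.473). It did so by 45.7 points at Nup214 (adjusted p = 0.0783), by 42.2 at the intron window of Rnf144b (adjusted p = 0.0870) and by 39.4 near Gpr110 (adjusted p = 0.466). None passed the threshold. At Tmed3 the nearest wild type MEP and GMP libraries were 85.92% and 85.96%, and near Gpr110 66.7% and 67.1%, so that the opposite order rests on small gaps there.

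The mean level of MEP minus GMP was above 0 within both title prefixes of the knockout and below 0 in both of wild type (-0.815 points) and of Idh2 R140Q (-1.37 points). The exact permutation p of 0.33 is the smallest that 2 against 2 can give. The prefixes were not taken as pairs in the knockout, and over single libraries MEP and GMP overlapped in knockout and in wild type. Unconverted mitochondrial reads were higher in GMP within both prefixes of wild type and of Idh2 R140Q, but not within both of the knockout. Their part in this order was not tested.

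Reads on the Y chromosome, outside the CpGs analysed, came to at least 202.5 per 1000000 autosomal reads in the knockout libraries and to at most 57.5 in wild type, and X reads to 1.17% to 1.29% of autosomal reads against 2.21% to 2.25%. Their part in the differences between knockout and wild type was not tested.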

How the results depend on the processing

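The count of windows higher in knockout MEP, 20, was 9 at 20 reads per CpG, 9 over CpGs read in all 15 libraries, 12 in 500 bp windows and 0 with limma, with edgeR or with the 4 knockout libraries alone. It ran from 0 to 10 without single libraries, and the count lower in MEP, 0, ran from 0 to 4, where 4 was reached without MEP replicate 2. A replicate block by title prefix, whose members share only a number here, gave 27 higher and 0 lower windows, and 3 windows whose lineage difference departed from that of wild type and 5 from that of Idh2 R140Q, against 0 and 0 without the block; the mean level difference with the block was the same 0.655 points. No promoter was called under any alternative run. None of the 20 windows changed sign, but most alternatives could not change it. limma, edgeR, the larger difference threshold, the replicate block and the 4 knockout libraries alone kept the same difference. Leaving out a single library cannot reverse windows whose MEP and GMP libraries lay at least 20.2 points apart. At 20 reads per CpG only 11 of the 20 windows were found. Over CpGs read in all 15 libraries 12 were found, and in 500 bp windows 18. The mean level difference of 0.655 points became -4.13 as methylated over all reads and ran from -0.0616 to 1.37 without single libraries.

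The readings at windows of the other genotypes, with alternatives chosen after seeing the data, moved as follows. At windows lower in wild type MEP the knockout difference of -2.76 points was -9.87 at 20 reads, -10.8 over CpGs read in all 15 libraries, -5.61 in 500 bp windows and 1.63 among windows changed by 25 points. Over CpGs read in all 15 libraries it was 15.8 at windows higher in wild type MEP and 15.2 at windows higher in Idh2 R140Q MEP. Without single libraries these ran from 15.5 to 19.8 and from 16.7 to 22.7, and at the windows lower in MEP from -3.30 to -2.22 (wild type list) and from -7.90, without MEP replicate 2, to -2.22, without MEP replicate 1 (Idh2 list). Promoters in 500 bp windows and interactions in the 4 knockout libraries alone were not run. The cause of these changes was not tested, apart from fewer CpGs and windows at 20 reads (222301 CpGs) and over all 15 libraries (241527 CpGs). The data set 2 libraries a group, and the simulated differences of 20 points or less were mostly missed at this depth.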
